A study of Sus scrofa with 6 samples.

Results

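The cells described here are oligodendrocyte precursors (OPCs) that lacked transcripts of MAG, a myelin membrane protein, in porcine midbrain-like organoids (pMLOs). They were chosen from the D28 and D45 libraries as cells with at least 2000 UMIs (unique molecular identifiers, each marking 1 captured mRNA molecule) and at most 7000 detected genes, at least 1 UMI of SOX10, at least 1 of OLIG1 or OLIG2, no UMI of MAG and fewer than 3 of STMN2, a neuronal tubulin-binding protein. The rule held for 1010 of the 41956 cells of these 4 libraries within the UMI and gene limits, and the 6 libraries together held 69679 such cells among 104820 barcodes. The rule used the levels of SOX10, OLIG1, OLIG2, MAG and STMN2, so these are given as descriptions with no test. The same applies to MBP where the comparison group was chosen by it.

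The organoids were grown from a single pig embryonic stem cell line, IVF_1_ pESC_FIW, and sampled on days 11, 28 and 45. Each day has 2 libraries, named A and B, which the study treats as biological duplicates. Embryoid bodies formed in mTeSR Plus with the ROCK inhibitor Y-27632 and then received N2B27 medium with SB431542, Noggin, SHH-C24II and CHIR99021, later FGF8, and after that B27 medium with FGF8, BDNF and ascorbic acid. After embedding in Matrigel, the D28 and D45 organoids were kept in B27 medium with BDNF, GDNF, ascorbic acid, db-cAMP and DAPT, an inhibitor of gamma-secretase that blocks Notch cleavage. No untreated, DAPT-free or second-line group was sequenced in the libraries used here, so the culture day was the only condition, and the labels call the cells midbrain dopaminergic neurons in every library.

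OPCs are dividing glial cells that arise from ventral neural progenitors and spread through the brain and spinal cord. SOX10, OLIG1 and OLIG2 are transcription factors of the whole lineage, PDGFRA is the receptor for the mitogen PDGF, and GPR17 and BCAS1 appear as a precursor stops dividing and commits to making myelin. Myelin itself is built from proteins such as MBP, MAG and MOG, and from lipids rich in cholesterol and galactose.

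Of the 4 libraries, 3 held these cells. D28 replicate A had 0 of 9240 cells (exact 95% binomial interval up to 0.0399%), and D28 replicate B had 153 of 11070 cells (1.38%, interval 1.17 to 1.62). The D45 libraries had 370 of 10506 cells (3.52%, interval 3.18 to 3.89) in replicate A and 487 of 11140 (4.37%, interval 4.00 to 4.77) in replicate B. D28 replicate A therefore stands apart from the other D28 library, and all D28 values below come from replicate B alone. The intervals cover counting error only.

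Averaged over libraries, the share was 3.95 ± 0.601% on D45 and 0.691 ± 0.977% on D28 (SD, n = 2 libraries each), a difference of 3.26 percentage points. The exact two-sided permutation test gave p = 0.33, the smallest value that 2 libraries against 2 can give, so this test cannot place this difference below the usual threshold. Cells within the same UMI, gene and STMN2 limits that had at least 1 UMI of MAG and at least 2 of MBP, here called MAG cells, numbered 0 and 47 in the D28 libraries and 461 and 416 in the D45 libraries. There were 0.307 MAG cells per OPC in D28 replicate B, 1.25 in D45 replicate A and 0.854 in D45 replicate B. When both rules were applied to cells thinned to 2000 UMIs, 1 cell of D28 replicate A, 64 of D28 replicate B, 240 of D45 replicate A (2.28%) and 234 of D45 replicate B (2.10%) met the OPC rule, so that the order of the D45 libraries turned. There were then 0.328, 1.69 and 1.496 MAG cells per OPC in D28 replicate B and the D45 replicates A and B. With the limit lowered to 500 UMIs, the D45 shares were 1.86% of 20338 and 2.64% of 18635 cells.

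**Figure D1:**
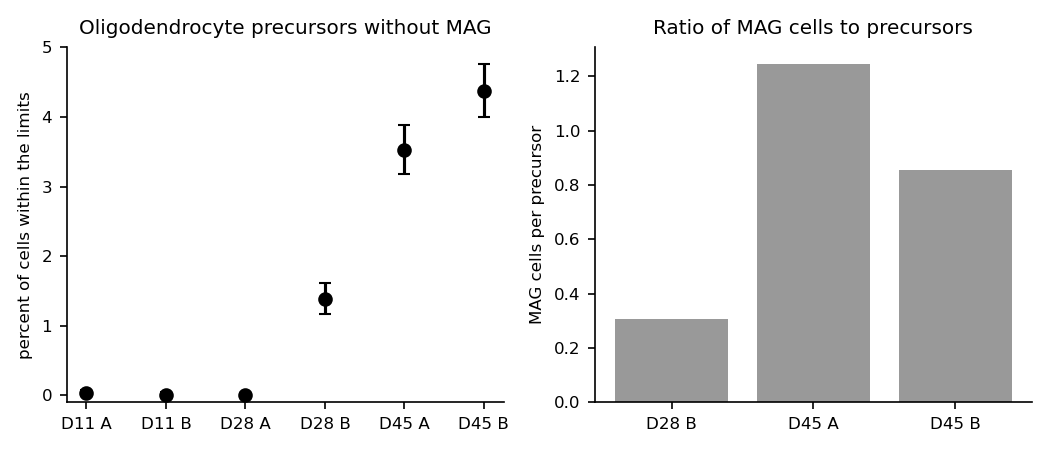
Left, percent of cells within the UMI and gene limits that met the OPC rule in each of the 6 libraries, with exact 95% binomial intervals; right, number of MAG cells per OPC in the 3 D28 and D45 libraries that held OPCs. At full depth the share was highest in D45 replicate B (4.37%) and no cell of D28 replicate A met the rule.

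The median OPC held 12050 UMIs in D28 replicate B, 13145 in D45 replicate A and 12236 in D45 replicate B. Mitochondrial genes took a median of 2.36, 2.14 and 2.19% of UMIs in the OPCs of these libraries, against 0.819, 0.631 and 1.08% in the other cells, which here and below leave out the OPCs and every cell with MAG 1 or more and MBP 2 or more, whatever its STMN2. No OPC barcode of a library was also an OPC barcode of another one, and any pair of libraries shared 55 to 119 barcodes of all kinds. Levels are given below as CPM, the UMIs of a gene summed over a group of cells per 1000000 UMIs of that group, always in the order D28 replicate B, D45 replicate A and D45 replicate B. In such sums, fewer cells that express a gene and less RNA per cell cannot be told apart.

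The genes that chose the cells were distributed as follows. SOX10 stood at 231, 351 and 309.9 CPM in the OPCs and at 411, 400.1 and 429.8 CPM in the MAG cells. OLIG1 stood at 661, 889.6 and 818 CPM in the OPCs and at 53.2, 44.3 and 57.7 CPM in the MAG cells, and the rule, which asked for OLIG1 or OLIG2 in the OPCs alone, favours this direction. OLIG2 stood at 34.0, 40.7 and 68.6 CPM in the OPCs and at 30.7, 10.2 and 23.5 CPM in the MAG cells. In the RefSeq annotation of Sscrofa11.1, SOX10 lies at chr5:9890439-9901746, and OLIG1 and OLIG2 lie at chr13:196644065-196646406 and chr13:196596838-196602197.

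Cells just inside the limits were not all alike. With exactly 1 UMI of SOX10 there were 41, 62 and 93 OPCs, and their GPR17 level was 391, 209 and 255 CPM. OPCs with exactly 1 UMI of OLIG1 and OLIG2 together numbered 22, 31 and 44. They had 82.3, 32.9 and 57.7 CPM of PDGFRA and 890, 1175 and 415 CPM of MBP. Of all OPCs, 41.2, 57.0 and 55.0% held 1 or 2 UMIs of STMN2. Cells with no SOX10 that met the rest of the rule, which numbered 129, 216 and 328, had 57.4, 12.5 and 16.4 CPM of GPR17. Cells with SOX10 but neither OLIG gene, 216, 425 and 521 in number, had 9.10, 43.4 and 37.5 CPM of PDGFRA. Cells excluded only because they held 3 or more UMIs of STMN2, 43, 192 and 149 in number, carried 261, 476 and 304 CPM of PDGFRA. The few cells with exactly 1 MAG UMI that met the rest of the rule, 6, 36 and 51 in number, had 2358, 4403 and 4442 CPM of BCAS1. When each cell was thinned to 2000 UMIs, 32.0, 39.5 and 33.7% of the OPCs still met the rule.

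The cell type name was compared with markers that the rule did not use. PDGFRA was found in 78.4, 82.4 and 78.9% of OPCs and in 0.734, 2.49 and 5.51% of neuron reference cells, which are cells of the same libraries with 3 or more UMIs of STMN2 and none of SOX10, OLIG1, OLIG2 or MAG. These reference cells held a median of 8399, 8660 and 8066 UMIs, and thinned to 2000 UMIs the shares were 28.8, 43.2 and 39.2% of OPCs and 0.151, 1.09 and 2.11% of reference cells. GPR17 was found in 86.9, 81.1 and 85.6% of OPCs, and in at most 2.48% of reference cells. At 2000 UMIs the GPR17 shares were 58.2, 48.6 and 58.9% of OPCs and 0.151, 0.362 and 0.727% of reference cells. PTPRZ1, a receptor-type phosphatase of glial precursors, was found in over 99% of OPCs in each library, but also in 37.5, 50.05 and 55.0% of reference cells, and at 2000 UMIs in 83.0, 92.7 and 92.0% of OPCs and 16.2, 25.5 and 28.3% of reference cells. The lineage markers independent of the rule were thus present in all 3 libraries, and CSPG4, the NG2 proteoglycan often used to stain OPCs, was in 11.8, 18.4 and 13.6% of OPCs, and at 2000 UMIs in 1.31, 4.59 and 3.29%. At full depth, NKX2-2 was found in 73.2, 75.4 and 71.3% of OPCs, SOX8 in 41.2, 35.9 and 33.5% and BCAS1 in 43.1, 80.5 and 83.6%. Of MAG cells, 89.4, 60.5 and 66.1% had GPR17, 83.0, 73.1 and 74.3% PTPRZ1 and 10.6, 5.42 and 6.01% PDGFRA. NKX2-2 was in 89.4, 53.1 and 60.8% of MAG cells, SOX8 in 66.0, 45.1 and 43.0% and BCAS1 in 100, 96.1 and 96.9%.

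The first comparison asked how these precursors differ from the MAG cells of the same libraries. The precursors held more transcripts of mitotic genes, of PDGFRA and of most growth factor and Notch, BMP and WNT genes tested, and fewer of most myelin genes. Among 12714 genes tested, 3187 (25.1%) were higher and 2468 (19.4%) lower in OPCs (edgeR's quasi-likelihood test with the library as a block, Benjamini-Hochberg adjusted p under 0.05). Without D45 replicate A the counts were 1818 and 1339, and without D45 replicate B 1528 and 1092. The median log2 difference over all genes was 0.06. Beside these shares of all genes, 18 of 26 tested OPC genes were higher and 5 lower (list median 1.29). Of 34 measured myelin genes, 25 had enough counts to be tested. Of these 25, 20 were lower and 2 higher (list median -2.99). The MAG cells were chosen by MAG and MBP and the OPCs by the absence of MAG. The direction of the myelin genes is therefore not independent of that choice.

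PDGFRA was higher in the OPCs of each library. Its level was 240.5, 373 and 282 CPM in OPCs and 32.7, 10.0 and 13.3 CPM in MAG cells, with no overlap between the groups (log2 difference 4.49 ± 0.31 SE, edgeR adjusted p = 1.83e-05). CSPG4 had 10.5, 20.1 and 15.1 against 0, 0.635 and 1.63 CPM (3.98 ± 0.40). LHFPL3, a membrane protein that is abundant in OPCs, was at 2795, 3656 and 2897 against 792, 452 and 609 CPM (2.32 ± 0.20). Also higher were MMP16, a membrane-bound metalloproteinase (2.72 ± 0.22), XYLT1, which starts the sugar chains of proteoglycans (2.45 ± 0.25), SOX9, a glial transcription factor (3.91 ± 0.27), and CCND1, the cyclin of the early cell cycle (3.86 ± 0.14). Here and below, a value with ± in parentheses is a log2 difference with its standard error (SE) from a gene that passed the test, unless another statement is made.

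Several genes that are often grouped with OPC markers went the other way or did not pass. TNR, BCAN and OPCML, which encode an extracellular matrix glycoprotein, a brain proteoglycan and a cell adhesion molecule, were lower in OPCs than in MAG cells (-2.22 ± 0.44, -0.97 ± 0.13 and -1.53 ± 0.16). GPR17 was at 539, 624 and 626 CPM in OPCs and 822, 264 and 407 CPM in MAG cells, and the groups overlapped (log2 difference 0.39 ± 0.29 SE, edgeR adjusted p = 0.306). Without D28 replicate B, where MAG cells had the higher level, the GPR17 difference passed, at 0.82 (edgeR adjusted p = 4.75e-07). NKX2-2, a transcription factor of the lineage, had 180.0, 177 and 136 against 213, 105 and 141 CPM and SOX6, which holds precursors undifferentiated in other species, had 2188, 2249.6 and 2354 against 3326, 2407 and 2487 CPM, and neither passed in the full set. Without D28 replicate B, SOX6 passed as well, at -0.20 (edgeR adjusted p = 0.0417), as did the adhesion molecule DSCAM, at 0.64 (edgeR adjusted p = 2.06e-06). The difference between OPCs and MAG cells changed between D28 and D45, by edgeR's test of the interaction, for 240 genes (1.89%) in the higher and 312 (2.45%) in the lower direction, and GPR17, PDGFRA and BCAS1 were among the former.

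**Figure D2:**
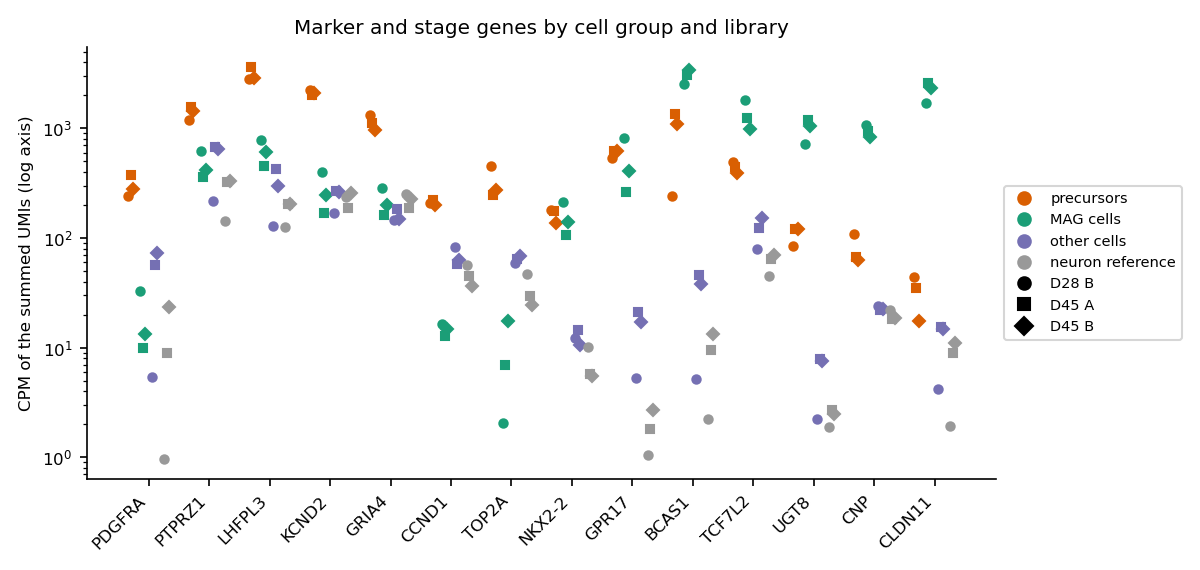
CPM on a log axis of 14 genes in OPCs, MAG cells, other cells and neuron reference cells; each point is 1 library (circle D28 B, square D45 A, diamond D45 B). PDGFRA, LHFPL3 and TOP2A lie higher in OPCs than in MAG cells in each library, CLDN11, UGT8 and CNP lie lower, and GPR17 overlaps.

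Most growth factor signalling genes tested were higher in OPCs. Of 22 tested, 15 were higher and 3 lower in OPCs (list median 1.06). The feedback inhibitors of receptor tyrosine kinases SPRY1, SPRY2 and SPRY4 were higher (2.96 ± 0.15, 2.24 ± 0.16 and 2.35 ± 0.26), as were ETV4 and ETV5, transcription factors that such receptors induce (3.69 ± 0.41 and 1.87 ± 0.15). NTRK2, the receptor for BDNF, which was part of the medium, stood at 963, 1874 and 1678 CPM in OPCs and 159.5, 291 and 435 CPM in MAG cells (2.34 ± 0.16). The 3 that were lower were FGFR2, a receptor of FGFs (-4.10 ± 0.18), and the ligands PDGFA (-2.80 ± 0.15) and PDGFC (-3.84 ± 0.29). The PDGF receptor was thus higher in the OPCs while its ligand PDGFA was higher in the MAG cells, at 166, 211 and 166 CPM against 35.5, 30.6 and 20.5 CPM.

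Cell cycle genes had the largest rises. All 18 tested members of the list were higher in OPCs, with a list median of 3.64. TOP2A, which untangles DNA before cell division, had 454, 249 and 276 CPM in OPCs and 2.05, 6.99 and 17.3 CPM in MAG cells (4.64 ± 0.31). TOP2A was found in 48.4, 31.4 and 31.2% of OPCs, in 2.13, 5.21 and 6.01% of MAG cells and in 6.25, 6.59 and 5.44% of neuron reference cells. Thinned to 2000 UMIs, the OPC shares were 28.8, 12.4 and 13.6%, and the shares in the other 2 groups were at most 2.49%. The 12 largest rises among genes that averaged at least 20 CPM over the libraries in the higher group were led by KIF14, a kinesin of the final separation of daughter cells, with 28.5, 17.0 and 21.8 CPM in OPCs and 0, 0.318 and 0.204 CPM in MAG cells. CENPF, a kinetochore protein, came next (5.46 ± 0.16), followed by POLQ, NDC80, PIMREG, CDCA8, ASPM, UBE2C, SPC25, KIF2C, BUB1 and BUB1B.

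The stretches of 250 bases before the annotated gene starts of KIF14 and CENPF (RefSeq annotation of Sscrofa11.1) are printed because these had the largest rises, with CCAAT and its reverse complement ATTGG in capitals. The KIF14 stretch lies at chr10:23177920-23178169 and the CENPF stretch at chr9:129012242-129012491, both on the minus strand and printed in the direction of the gene.
KIF14: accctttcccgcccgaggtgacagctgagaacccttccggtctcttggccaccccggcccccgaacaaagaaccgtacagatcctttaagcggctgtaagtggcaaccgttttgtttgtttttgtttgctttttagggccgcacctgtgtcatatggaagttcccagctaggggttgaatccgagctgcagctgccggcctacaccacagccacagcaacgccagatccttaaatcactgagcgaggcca
CENPF: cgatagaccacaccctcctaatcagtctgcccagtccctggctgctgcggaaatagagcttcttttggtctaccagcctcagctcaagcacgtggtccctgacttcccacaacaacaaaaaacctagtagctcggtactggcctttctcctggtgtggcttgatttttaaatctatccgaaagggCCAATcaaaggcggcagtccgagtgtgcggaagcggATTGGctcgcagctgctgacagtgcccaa
CENPF carries the box on both strands, 65 and 29 bases before its start, and KIF14 carries none in this window. In windows of 300 bases, which add 50 bases after the start, CCAAT on either strand was found in 34.9% of 14238 promoters, in 68.0% of the 100 largest rises and in 31.0% of the 100 largest falls in OPCs against MAG cells. It was also found in 14 of 18 cell cycle genes, and in 34 of the 100 largest rises in OPCs against other cells. TTTGAA on either strand was found in 12.4% of all promoters, in 26 and 13 of the 100 largest rises and falls against MAG cells, in 7 of 18 cell cycle genes and in 13 of the 100 largest rises against other cells. Both motifs were chosen after the rises had been seen, and a match of letters is not a bound site. ACAAAG and ACAATG, bound by SOX proteins, and CAGCTG and CAGATG, bound by basic helix-loop-helix proteins such as OLIG2, were searched on both strands in the 100 largest rises in OPCs against other cells. They were found in 12, 7, 24 and 14 of these 100, beside 12.9, 7.56, 16.1 and 12.9% of all promoters. In the 100 largest rises against MAG cells they were found in 12, 6, 17 and 9, and in the 100 largest falls in 17, 11, 15 and 16.

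Parts of the myelin sheath were among the lower genes. MOG, on the outer surface of myelin, had 1.00, 4.74 and 2.55 CPM in OPCs and 43.0, 358 and 374 CPM in MAG cells (-6.68 ± 0.23), and CLDN11, a tight junction protein of the sheath, 44.0, 34.8 and 17.7 against 1689, 2608 and 2336 CPM (-6.27 ± 0.32). CNP, a myelin enzyme (-3.67 ± 0.14), UGT8, which makes galactolipids (-3.22 ± 0.11), and HAPLN2, a link protein of the nodes of Ranvier (-5.55 ± 0.26), were lower too. The groups did not overlap for any of these 5 genes, which were named from those that passed. The share of all tested genes without overlap is not given here. The largest falls were those of HOXD1, a homeobox gene, with 0, 0 and 0.159 CPM in OPCs against 6.14, 37.0 and 34.1 CPM in MAG cells, and of TMEM125, with 0, 0.395 and 0 against 10.2, 51.9 and 56.5 CPM. ST18, a zinc finger factor, followed with 2.50, 0.988 and 1.91 against 92.0, 341 and 362 CPM (-7.56 ± 0.32). The MAG cells were chosen by MAG and MBP, so the myelin genes are not independent of that choice.

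Genes of committed precursors lay in between. Of 16 tested, 11 were lower and 4 higher in OPCs than in MAG cells (list median -1.53). BCAS1 had 239, 1338 and 1102 CPM in OPCs and 2549, 3069 and 3372 CPM in MAG cells (-2.08 ± 0.36), and ENPP6, a choline phosphodiesterase of newly formed oligodendrocytes, 60.0, 18.8 and 9.39 against 423, 262 and 236 CPM (-3.79 ± 0.29). TCF7L2 (-1.62 ± 0.13), NFASC, a node adhesion protein (-3.62 ± 0.14), and ZNF488, a zinc finger factor of the lineage (-4.23 ± 0.24), were lower as well. P2RX7, an ATP-gated channel that was placed in this list, was higher (2.21 ± 0.19).

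Receptors, channels and guidance genes were compared as further groups. Of 33 tested transmitter receptor and channel genes, 18 were higher and 2 lower in OPCs (list median 1.03). KCND2, a potassium channel subunit, stood at 2221, 2006 and 2109.7 against 401, 170.1 and 245 CPM (3.01 ± 0.19), the AMPA receptor subunits GRIA4 and GRIA3 at 2.39 ± 0.14 and 3.13 ± 0.17, and the sodium channel SCN1A at 2.53 ± 0.19. Of 33 extracellular matrix and guidance genes, 14 were higher, among them the ephrin receptor EPHA4 (4.49 ± 0.19) and the link protein HAPLN1 (3.61 ± 0.32), and 8 lower, among them SEMA5A (-2.05 ± 0.16) and EPHB1 (-2.05 ± 0.17). Of 21 Notch, BMP and WNT genes, 16 were higher and 1 lower (list median 1.26). The Notch ligand DLL1 had 89.0, 101 and 120.0 against 38.9, 20.3 and 28.4 CPM (2.02 ± 0.17), the Notch target HES5 3.50, 23.1 and 11.3 against 0, 2.38 and 1.63 CPM (3.04 ± 0.30), and BMP7 31.0, 68.5 and 77.2 against 2.05, 7.78 and 14.5 CPM (2.72 ± 0.19). In the MAG cells of D28 replicate B, 3 UMIs would make 6.14 CPM, so that library alone cannot show a lower HES5 level in them.

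Cholesterol synthesis genes moved little as a group. Of 22 tested, 3 were higher and 2 lower, with a list median of 0.10.

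**Figure D3:**
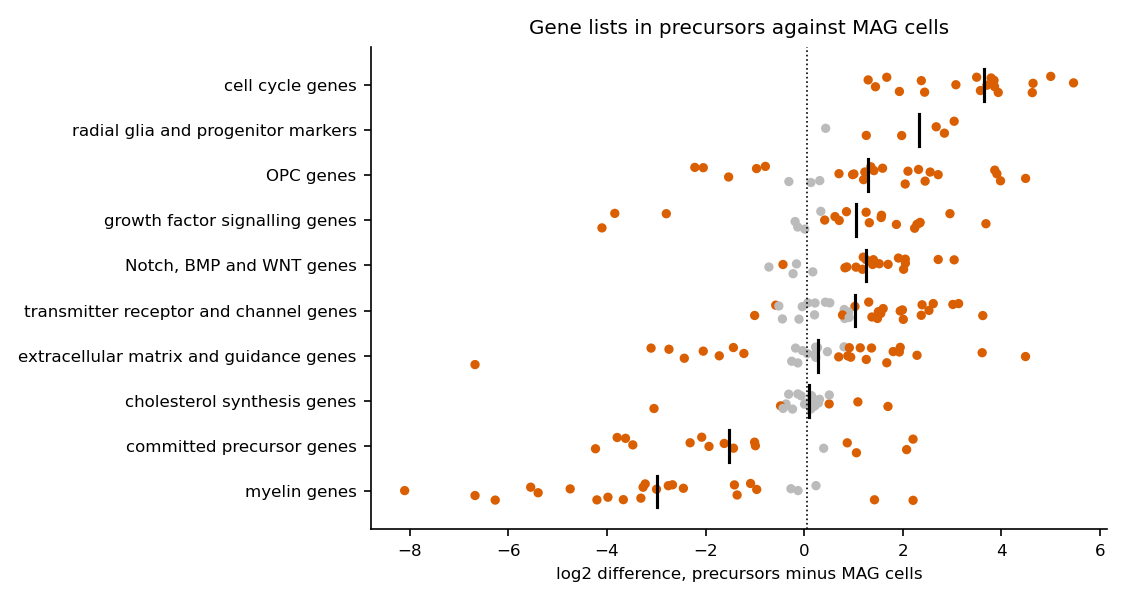
Log2 difference between OPCs and MAG cells for each tested gene of 10 lists (orange, edgeR adjusted p under 0.05; grey, not), with the list median as a bar and the median of all genes (0.06) as a dotted line. The 18 cell cycle genes lie to the right of the line and most myelin genes to the left.

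Markers of other cell types were compared as well. The summed level of the 7 measured radial glia and progenitor markers was 4456, 3131 and 3239 CPM in OPCs and 497, 870.5 and 943 CPM in MAG cells, and 5 of 6 tested were higher in OPCs, among them FABP7 (2.84 ± 0.15) and NES (2.68 ± 0.12). The 9 astrocyte markers summed to 99.5, 356 and 347 CPM in OPCs and to 18.4, 90.5 and 91.2 CPM in MAG cells, with 1 of them at 0 in D28 replicate B OPCs and 5 at 0 in the MAG cells of that library, AQP4 in both. The 12 neuron markers summed to 676, 847 and 751 CPM in OPCs and 4392, 3482 and 4283 CPM in neuron reference cells. None was at 0 in OPCs. DCX, a member of this list, did not separate these groups by detection at full depth. It was found in 75.2, 72.4 and 68.6% of OPCs and 76.2, 61.8 and 64.5% of reference cells. In thinned cells its shares were 23.5, 22.2 and 23.6% of OPCs and 40.7, 29.7 and 30.4% of reference cells. The part of other cell types in the differences was not tested. When cells with any TOP2A UMI were left out of both groups, an alternative added after seeing the data, PDGFRA (4.81 ± 0.33) and LHFPL3 (2.30 ± 0.24) kept their direction and passed.

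The OPCs differed among themselves when ordered by MBP, which the OPC rule did not use. MBP was at 0 in 108, 250 and 320 cells and reached 10 or more UMIs in 15, 33 and 39. From cells with 0, over 1 and 2 to 9, to 10 or more MBP UMIs, PDGFRA was at 271, 178, 237 and 85.2 CPM in D28 replicate B, 476, 310.1, 152 and 45.4 in D45 replicate A and 328, 327, 175 and 46.1 in D45 replicate B. GPR17 went the other way, with 381, 509, 1031 and 1182, then 467, 581, 1087 and 1237, and then 488, 534, 918 and 1318 CPM. BCAS1 had 51.2, 47.2, 311 and 1678 CPM in D28 replicate B and 482, 837, 3485 and 5401 in D45 replicate A. TOP2A was lowest in the classes with 2 or more MBP UMIs in each library. The classes of D28 replicate B with 1 or more MBP UMIs held 11, 19 and 15 cells. These values are a description, with no test.

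**Figure D4:**
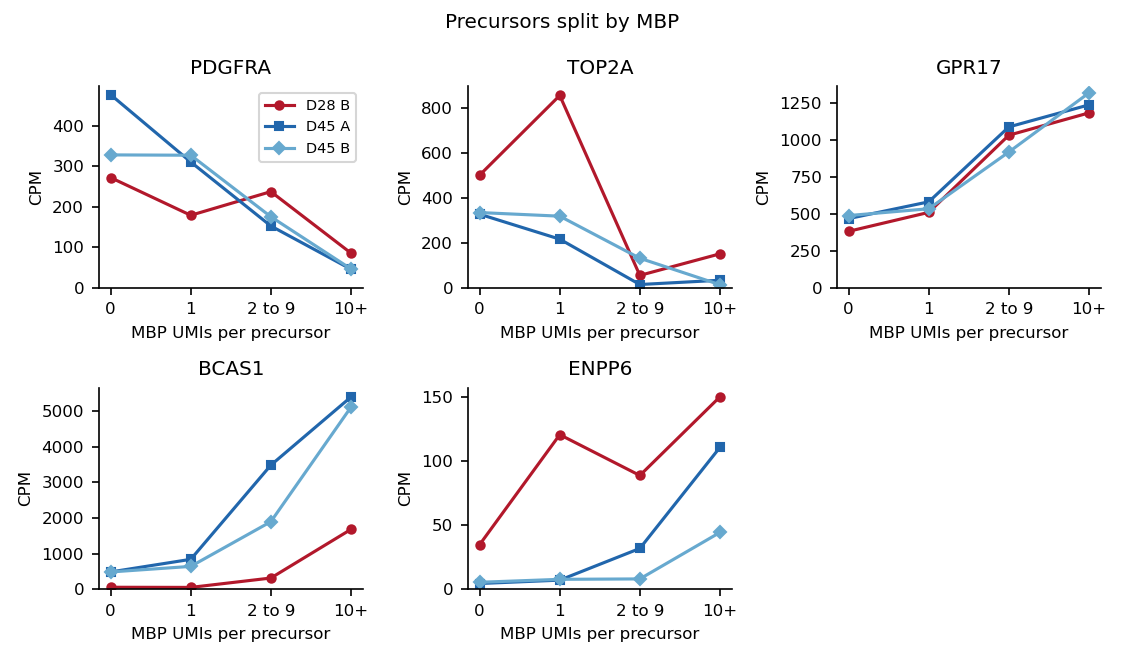
CPM of 5 genes in OPCs grouped by their MBP UMIs (0, 1, 2 to 9, 10 or more), with 1 line per library. PDGFRA is highest in the cells with 0 MBP UMIs, and GPR17 and BCAS1 are highest in the class with 10 or more.

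PDGFRA and GPR17 were found together in most OPCs. Both had a UMI in 70.6, 68.1 and 71.5% of OPCs, while 7.84, 14.3 and 7.39% had PDGFRA only and 16.3, 13.0 and 14.2% GPR17 only. Thinned to 2000 UMIs, both were found in 15.0, 20.3 and 23.2%. TOP2A was found in 58.3, 50.9 and 44.4% of PDGFRA-only cells, in 54.6, 29.4 and 31.3% of cells with both and in 6 of 25, 12 of 48 and 16 of 69 GPR17-only cells. With the classes and TOP2A both read at 2000 UMIs, these shares were 47.6, 18.8 and 29.5% of PDGFRA-only cells, 26.1, 9.33 and 11.5% of cells with both and 16.7, 5.71 and 4.60% of GPR17-only cells. The PDGFRA-only cells of D28 replicate B were only 12.

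PDGFRA-only and GPR17-only OPCs were then tested against each other in the D45 libraries, where each group had at least 20 cells (53 and 36 against 48 and 69). The PDGFRA-only cells held more mitotic transcripts, and the GPR17-only cells more transcripts of most commitment genes tested and of 6 of 14 myelin genes. Of 8600 genes tested, 393 (4.57%) were higher and 257 (2.99%) lower in PDGFRA-only cells (edgeR's quasi-likelihood test). The counts rested on the tool, since DESeq2 called 61 and 65. Of the 48 named genes that passed, 18 lost the call with DESeq2, 9 had no adjusted p there and 21 kept it. Of the genes given below, TOP2A, UBE2C, CCND1, SPRY1, SOX9, NKX2-2 and COL1A1 lost it and ETV4 had no adjusted p. With cells thinned to 2000 UMIs, CCND1 and NKX2-2 lost the call as well. The median UMIs of the PDGFRA-only cells were 10625 and 11056 against 14661 and 11738 in the GPR17-only cells.

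Cell cycle genes were higher for 12 of 17 tested and lower for none (list median 2.25, all genes -0.02). TOP2A had 491 and 781 CPM in the PDGFRA-only cells of D45 replicates A and B and 144 and 41.9 CPM in the GPR17-only cells (2.79 ± 0.44). UBE2C, which drives the exit from mitosis, had 179 and 250.2 against 21.3 and 2.39 CPM (4.16 ± 0.50). ETV4 was at 17.1 and 23.4 CPM in PDGFRA-only cells and at 0 in GPR17-only cells of both libraries. CCND1 (1.40 ± 0.19), SPRY1 (1.83 ± 0.28), SOX9 (2.17 ± 0.33), HAPLN1 (3.41 ± 0.44) and CNTN1, an adhesion molecule of axons and glia (1.88 ± 0.22), were higher too. These genes were also among those higher in OPCs than in MAG cells.

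Committed precursor genes were lower in PDGFRA-only cells for 10 of 15 tested and higher for none (list median -1.76), and the other 8 of the 14 myelin genes did not pass in either direction (list median -1.26). Of 23 tested OPC genes, 5 were higher and 8 lower in PDGFRA-only cells (list median 0.04). BCAS1 had 157 and 149.6 CPM in PDGFRA-only and 3654 and 3234 CPM in GPR17-only cells (-4.55 ± 0.15, edgeR adjusted p = 6.61e-07). MBP, which did not enter the choice of these cells, had 17.1 and 77.2 against 1016 and 882 CPM (-4.56 ± 0.40), and TNR 66.8 and 79.5 against 927 and 700.2 CPM (-3.55 ± 0.22). FYN, a kinase of early myelination (-2.35 ± 0.15), TCF7L2 (-1.76 ± 0.17), SOX6 (-1.49 ± 0.13) and NKX2-2 (-1.18 ± 0.20) were lower in the PDGFRA-only cells. PTPRZ1, with 1702 and 1181 against 1349.8 and 1303 CPM, did not pass.

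Matrix genes also differed between these small groups. POSTN, a matrix protein, stood at 152 and 171 CPM in PDGFRA-only and 5.69 and 7.18 CPM in GPR17-only cells. COL1A1, a fibroblast collagen, was at 4.66 and 566 CPM in PDGFRA-only and 9.96 and 40.7 CPM in GPR17-only cells, so that its difference (3.19 ± 0.59) came from D45 replicate B, while in D45 replicate A the order was reversed. The 17 and 34 OPCs of the D45 libraries with neither PDGFRA nor GPR17 held 403 and 457 CPM of AQP4, the astrocyte water channel, against 4.31 and 4.86 CPM in the cells with both. BCAS1 was at 8.56 and 211 CPM in these cells. The part of other cell types in these values was not tested.

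The second comparison set the OPCs against the other cells of their libraries, 10865, 9534 and 10127 in number, which include the cells just outside the rule's limits but not the cells with MAG and MBP described above. That is narrower than the planned group of all cells that are neither OPCs nor MAG cells. With the cells of 3 or more STMN2 UMIs among them added back, as planned, 3452 genes were higher and 4811 lower, and with all MAG cells added 3367 and 4729. Both fits were added after seeing the data, and each of the 62 named genes that passed kept its call and direction in them. Most OPC and commitment genes tested and all cell cycle genes tested were higher. All tested markers of floor plate, fibroblasts and ciliated cells and most of those of neurons were lower. Of 19059 genes tested, 3468 (18.2%) were higher and 4851 (25.5%) lower in OPCs (edgeR's quasi-likelihood test, median of all genes -0.16). Without the library term the counts were 2233 and 3166. OPC genes were higher for 23 of 26 and lower for 1 (list median 2.51), committed precursor genes higher for 14 of 16 and lower for 1 (1.96), and cell cycle genes higher for 18 of 18 (2.07).

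GPR17 showed the largest rise among the named genes. It was at 539, 624 and 626 CPM in OPCs and 5.30, 21.1 and 17.3 CPM in other cells (log2 difference 5.72 ± 0.31 SE, edgeR adjusted p = 3.38e-07). BCAS1 had 5.23, 45.9 and 38.5 CPM in the other cells (5.23 ± 0.16). SCRG1, ACAN, a large proteoglycan, TGFA, a ligand of the EGF receptor, and CMTM5 were also among the 12 largest rises (4.96 ± 0.33, 4.69 ± 0.34, 4.67 ± 0.15 and 4.48 ± 0.35). UGT8 (4.52 ± 0.24) and GAL3ST1 (3.88 ± 0.27), which make and sulfate galactolipids, were higher in OPCs than in other cells although both were lower than in MAG cells in each library. IRX1 was the only one of 25 tested regional position genes that was higher (18.5, 20.3 and 29.0 against 9.30, 5.98 and 7.11 CPM, 1.82 ± 0.22), while 15 were lower.

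Receptor and channel genes divided. Of 37 tested, 12 were higher and 21 lower (list median -1.34). GRIA4 (3.01 ± 0.13), the kainate receptor subunit GRIK3 (3.00 ± 0.20), KCND2 (3.37 ± 0.16) and the inward rectifier KCNJ10 (3.56 ± 0.31) were higher. GAD2, which makes GABA, was at 1.00, 6.12 and 4.14 CPM in OPCs and 46.2, 109.7 and 68.2 CPM in other cells. CDH12, a cadherin, showed the largest fall among the named genes (-4.96 ± 0.30).

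Notch, BMP and WNT genes were lower for 15 of 24 and higher for 3, where 16 of 21 had been higher against MAG cells. DLL1 was higher in OPCs (89.0, 101 and 120.0 against 10.1, 16.6 and 15.5 CPM, 3.07 ± 0.14). The receptors NOTCH2 (-1.99 ± 0.15) and NOTCH3 (-2.72 ± 0.26), the target HES1 (-1.65 ± 0.18) and ID4, an inhibitor of basic helix-loop-helix factors (-2.65 ± 0.14), were lower. DAPT was present in the medium of all these libraries, for OPCs and other cells alike, and its part in these levels was not tested. Guidance genes of neurons, SLIT2, ROBO1, ROBO2 and NRP1, were lower as well (-2.99 ± 0.13, -2.74 ± 0.15, -2.88 ± 0.13 and -2.96 ± 0.23), while EPHA4 and EPHB1 were higher (1.19 ± 0.21 and 1.44 ± 0.11). Of all 37 extracellular matrix and guidance genes, 13 were higher and 15 lower (list median -0.37).

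Cholesterol synthesis genes were lower in OPCs than in other cells for 9 of 22 and higher for 1 (list median -0.46). SC5D, which acts late in the pathway, had 19.5, 12.6 and 14.5 against 66.6, 101 and 70.0 CPM (-2.21 ± 0.20). Of the other cell types, 7 of 7 fibroblast, 7 of 7 floor plate, 5 of 5 ciliated cell, 7 of 9 astrocyte and 8 of 12 neuron markers were lower in OPCs, and none of these was higher. The neuron markers are not independent of the rule, which limited STMN2 in the OPCs, while 5311, 4414 and 3990 of the other cells were neuron reference cells. Of 7 radial glia and progenitor markers 2 were higher and 4 lower (list median -0.62), and of 12 neural crest and Schwann markers 2 were higher and 3 lower (-0.09). PTPRC, a leukocyte phosphatase and the only 1 of 4 tested microglia markers that was higher, had 79.0, 38.7 and 33.7 CPM in OPCs, 98.2, 38.0 and 32.4 CPM in MAG cells and 23.8, 17.6 and 17.9 CPM in other cells (1.43 ± 0.17). MITF, 1 of the 2 higher neural crest and Schwann markers and best known from pigment cells, was at 273, 203 and 196 against 28.8, 48.8 and 44.7 CPM (2.64 ± 0.21).

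The third comparison set the OPCs of the 2 D45 libraries against those of D28 replicate B. With 1 library on D28, the lone sum was assumed to vary like the others, and a difference between days cannot be told apart from a difference between that library and the rest. Of 13361 genes tested, 400 (2.99%) were higher and 515 (3.85%) lower on D45 (edgeR's quasi-likelihood test, median of all genes 0.02), and DESeq2 called 119 and 129. Of the 52 named genes that passed, 6 lost the call with DESeq2, and 4, among them LIN28B, CA14 and FOXA1, had no adjusted p there. When the rule was applied to cells thinned to 2000 UMIs, 64 cells of the D28 library met it. Of these, 49 were OPCs and 6 MAG cells at full depth, so the group was partly made of other cells. In that fit 20 of the 52 lost the call, among them LIN28B, CA14, FOXP2, NKD1, AQP4, GFAP, FOXA1, SPON1 and CD9. With the same cells kept and their counts thinned, 10 of 49 lost it, among them UBE2C, ADAMTS3 and CA14. Without the cells that held a TOP2A UMI, an alternative added after seeing the data, the counts were 254 and 218. Relative to the day difference in the other cells of the same libraries, a comparison added after seeing the data, 279 (1.46%) were higher and 430 (2.26%) lower of 19059 tested. Of the 52 named genes, 20 passed there with the same sign, while 19 had the opposite sign, of which CD9, a tetraspanin (0.78 ± 0.15 between days and -1.95 ± 0.22 relative), and NES (-0.94 ± 0.11 and 1.22 ± 0.21) passed.

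Cell cycle genes were lower on D45 for 12 of 18 and higher for none (list median -0.89). TOP2A was at 454, 249 and 276 CPM (-0.78 ± 0.13), PCNA, the sliding clamp of DNA replication, at 317, 104 and 137 CPM (-1.38 ± 0.17), and UBE2C at 159, 72.9 and 74.8 CPM (-1.09 ± 0.12). In the other cells TOP2A stood at 58.6, 64.1 and 68.6 CPM and PCNA at 76.2, 53.4 and 41.1 CPM. Relative to these, TOP2A (-0.97 ± 0.20) and PCNA (-0.70 ± 0.22) stayed lower, and UBE2C, at -0.61 ± 0.23, did not pass. In the neuron reference cells TOP2A stood at 46.6, 29.9 and 24.5 CPM, and the ratio of the mean D45 level to the D28 level was 0.583 there and 0.577 in OPCs. That ratio was 0.351 in reference cells and 0.464 in OPCs for UBE2C, 0.462 and 0.443 for the cyclin CCNB1, and 0.768 and 0.379 for PCNA. These ratios were not tested against each other. SOX9 had 193, 81.0 and 69.7 CPM in OPCs (-1.34 ± 0.13) while it was 31.9, 52.3 and 54.3 CPM in other cells (-2.10 ± 0.23 relative to them).

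Stage genes of the lineage moved in part. Of 26 OPC genes, 7 were higher and 2 lower on D45, of 16 committed precursor genes 3 were higher and 1 lower, and of 23 myelin genes 2 were higher and 2 lower. BCAS1 had 239, 1338 and 1102 CPM (2.36 ± 0.18, edgeR adjusted p = 0.00268), but it also differed between days in other cells, at 5.23, 45.9 and 38.5 CPM, and the relative difference of -0.66 ± 0.22 did not pass. PLLP, a myelin proteolipid (26.5, 109.8 and 101 CPM, 2.00 ± 0.17), and CSPG5, a neural proteoglycan (35.5, 112 and 79.7 CPM, 1.44 ± 0.25), were higher in both readings. ENPP6 was lower, at 60.0, 18.8 and 9.39 CPM (-2.10 ± 0.35), but not relative to the other cells (0.29 ± 0.31). PDGFRA, GPR17 and MBP, at 0.46 ± 0.18, 0.23 ± 0.13 and 0.02 ± 0.19, did not pass.

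LIN28B, an RNA-binding protein of developmental timing, showed the largest fall among the named genes, with 22.0, 1.58 and 1.91 CPM in OPCs (-3.61 ± 0.42) and 32.6, 20.4 and 10.3 CPM in other cells, and it stayed lower relative to them (-2.48 ± 0.44). ADAMTS3 (-2.74 ± 0.22), CA14, a carbonic anhydrase (-2.68 ± 0.45), and FOXP2 (-3.04 ± 0.18) also stayed lower. NKD1, an inhibitor of WNT signalling, was at 4.00, 29.0 and 27.0 CPM (2.81 ± 0.33), TRPC5, a cation channel, at 2.50, 56.9 and 25.6 CPM (4.03 ± 0.80), and HTR2C, a serotonin receptor, at 2.50, 34.6 and 24.7 CPM (3.56 ± 0.47), and all 3 stayed higher. SHISA9, an AMPA receptor auxiliary protein, had 0 UMIs on D28 and 52.7 and 17.3 CPM on D45, at least 23.4-fold higher than the level of 3 UMIs in the D28 library, or at least 11.6-fold without D45 replicate A. SHISA9 lost its call without the cells that held a TOP2A UMI (edgeR adjusted p = 0.071).

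The astrocyte genes AQP4 and GFAP and the secreted genes APOE and CXCL14 were higher on D45 in OPCs, and their levels were higher in the other cells as well. Of 8 tested astrocyte markers, 3 were higher on D45 and none lower. AQP4 had 0 UMIs in the D28 OPCs and 22.7 and 48.2 CPM on D45, at least 23.6-fold higher than the level of 3 UMIs, or at least 15.1-fold without D45 replicate B, beside 0.968, 72.0 and 94.0 CPM in other cells. Of these UMIs, 94 of 115 and 225 of 303 lay in the 17 and 34 cells with neither PDGFRA nor GPR17. AQP4 also lost its call with 2 or more SOX10 UMIs (edgeR adjusted p = 0.059), with the rule applied to thinned cells (0.18) and without cells that held TOP2A (0.064). GFAP was at 2.00, 35.6 and 49.2 CPM in OPCs (4.41 ± 0.47) and 3.98, 101 and 117 CPM in other cells, and APOE at 8.50, 95.8 and 149 CPM (3.86 ± 0.42) and 14.8, 368 and 551 CPM. Relative to the other cells GFAP (-0.38 ± 0.75) and APOE (-1.12 ± 0.44) did not pass, nor did CXCL14, a chemokine (-0.19 ± 0.30). The floor plate genes FOXA1 (-2.28 ± 0.41) and SPON1 (-1.65 ± 0.16) were lower in OPCs and likewise not relative to the other cells (0.26 ± 0.35 and 0.68 ± 0.24). Of 7 fibroblast markers, 2 were higher on D45 and none lower (list median 3.53). The collagen COL6A3 had 1 UMI in the D28 OPCs and 7.70 and 15.1 CPM on D45, beside 4.04, 64.6 and 141 CPM in other cells. LUM, a matrix proteoglycan, had 1 UMI on D28 and 6.91 and 9.39 CPM on D45, beside 12.3, 58.7 and 90.1 CPM in other cells. These are the 2 that were higher, and neither passed relative to the other cells. COL1A1, at 3.50, 14.0 and 65.1 CPM in OPCs and 34.1, 213 and 652 CPM in other cells, did not pass between days. The 7 markers summed to 62.0, 89.5 and 321 CPM in OPCs and to 411, 1081 and 2893 CPM in other cells. The floor plate markers summed to 215, 90.1 and 101 CPM in OPCs and to 1362, 275 and 383 CPM in other cells, and the part of free RNA and of other cell types in these values was not tested.

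**Figure D5:**
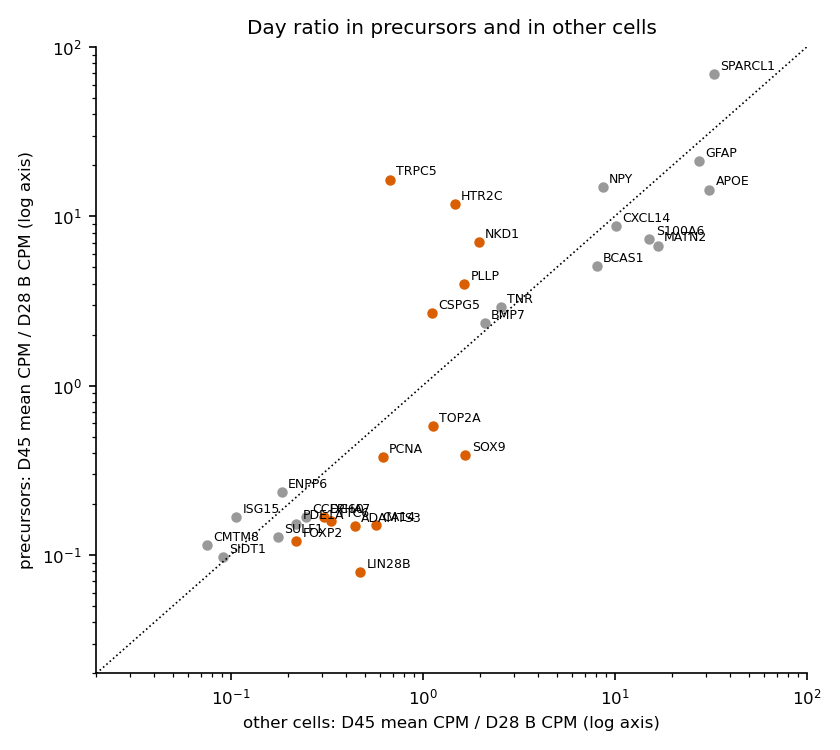
Ratio of the mean D45 CPM to the D28 replicate B CPM in OPCs (vertical) against the same ratio in the other cells (horizontal), both on log axes, for the named day genes and 9 more from the lists, leaving out AQP4 and SHISA9, which had 0 UMIs on D28. Orange points passed the test relative to the other cells, grey did not; LIN28B and TRPC5 lie off the dotted line of equal ratios.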

How the data were processed

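The authors aligned 10x GEM-X 3' reads to the pig genome with Cell Ranger (8.0.1 in the matrix headers) and deposited raw UMI counts per gene and barcode for 6 libraries. Their later limits, at least 200 genes, at most 7000 genes and at most 10% mitochondrial UMIs, were not applied in the deposited files and leave 103519 of 104820 barcodes, where the design text states 103310. Of 30477 genes, 16266 had a symbol in the files, 834 were named through the RefSeq annotation and 13377 kept their number.

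OPCs, MAG cells and other cells were chosen by UMI counts within each library, and the other cells left out the cells with MAG and MBP and 3 or more STMN2 UMIs, which the plan had kept. The counts were summed per library and group where a group held at least 20 cells. Sums were tested with edgeR 4.0.16 in R 4.3.3 (quasi-likelihood test, TMM, filterByExpr, library as a block except between days, Benjamini-Hochberg over all tested genes, threshold 0.05). DESeq2 1.42.0 was an alternative. With up to 3 libraries of a single line, p-values within libraries measure how the difference between groups varied from library to library. Between days they rest on the spread between the D45 libraries. The library block pairs groups taken from the same library. The letters A and B are not said to pair libraries of different days. Many shares of cells with a UMI are also given at 2000 UMIs per cell. Doublets were kept. As an alternative, the cells with the highest scrublet scores were removed at an assumed rate of 0.4% per 1000 cells. That took out 342 and 490 cells of the D28 replicates A and B and 442 and 496 of the D45 replicates A and B. The automatic threshold of scrublet had called 85, 3, 2 and 2 cells in the same order. Promoters were cut from the RefSeq genome and annotation of Sscrofa11.1 for 14238 genes with a symbol.

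Results for some genes are not reported here. The members, gene lists and tests were chosen with earlier results of these data known. Besides list genes, the text names genes among the 12 largest rises and falls of each test that averaged at least 20 CPM in the higher group and moved the same way in each library. The TOP2A-free fit, the fits with MAG cells among the other cells, the day difference relative to other cells, the interaction of day and group, the doublet rate and the CCAAT and TTTGAA motifs were added after seeing the data.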

Additional observations from a re-analysis of the deposited data

Results flagged for a closer look

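On D11, 4 cells of replicate A and 2 cells of replicate B met the OPC rule, and none of them held a UMI of PDGFRA or GPR17.

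The difference between OPCs and MAG cells itself differed between days for 240 genes (1.89%) in the higher and 312 (2.45%) in the lower direction of 12714 tested (edgeR's quasi-likelihood test of the interaction, adjusted p under 0.05). The D28 side rests on 1 library with 47 MAG cells. The log2 difference, OPCs minus MAG cells, was more positive on D45 than on D28 by 1.95 for PDGFRA, 1.02 for PTPRZ1, 0.80 for LHFPL3, 2.22 for LUZP2, 1.08 for MMP16 and 0.85 for KCND2. It was also more positive on D45 by 2.00 for BCAS1, 2.36 for TNR, 0.58 for NFASC, 0.79 for OPCML, 0.75 for SEMA5A and 0.82 for EPHB1. For GPR17, SOX6 and DSCAM, which did not pass in the comparison over all libraries, the change was 1.53, 0.51 and 1.20. It was negative for the myelin gene CLDN11 (-1.35), for PDGFC (-1.69), for ENPP6 (-1.37) and for CNTN1 (-2.22). GPR17 was higher in MAG cells than in OPCs on D28 and lower in both D45 libraries.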

How the results depend on the processing

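Where a named gene that passed had a value in an alternative, its direction held, but not each gene had one (with thinned cells, 24 of 48 for PDGFRA-only, 62 of 74 against MAG cells and 49 of 52 between days). The exception is the day difference relative to other cells, added after seeing the data, in which 19 of 52 changed sign. Of these, 17 did not pass, among them BCAS1 (-0.66), ENPP6 (0.29), GFAP (-0.38), APOE (-1.12), FOXA1 (0.26) and SPON1 (0.68), while CD9 (-1.95) and NES (1.22) passed. For OPCs against MAG cells, DESeq2 called 2067 genes higher and 1619 lower, cells thinned to 2000 UMIs gave 1626 and 1521, and leaving out a library gave 1528 to 3705 higher and 1092 to 3505 lower. CNTN1 and LUZP2 lost the call without the block. For OPCs against other cells, the fit with no replicate block (library term left out) called 2233 higher and 3166 lower, and leaving out a library gave 2410 to 4321 and 3370 to 5151. For PDGFRA-only against GPR17-only cells, DESeq2 called 61 and 65, no filter on low counts gave 666 and 473, and thinned cells gave 87 and 103. Between days, DESeq2 called 119 and 129, no filter gave 1236 and 983, thinned cells 225 and 221, gates on thinned cells 226 and 268, and cells without TOP2A, added after seeing the data, 254 and 218. Over the named genes, calls were lost in 52 of the alternative values between days, 26 for PDGFRA-only cells, 2 against MAG cells and none against other cells. The causes were not tested.

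The difference in OPC share was 2.56 to 3.95 points when a library was left out. The PDGFRA-only comparison could not be fitted without either D45 library or with 2 or more SOX10 UMIs, nor the day comparison without a library. No paired analysis of the days was possible, because the letters are not said to pair libraries of different days. D28 replicate A also held no OPC. Of the named day calls with a value, 39 of 49 were kept with cells thinned to 2000 UMIs and 32 of 52 with the rule applied to thinned cells.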
